A study of Mus musculus with 6 samples.

Results

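CC chemokines are small secreted proteins that draw leukocytes along a gradient, and their name comes from a pair of adjacent cysteines near the start of the mature protein. Described here are 9 of their genes in the mouse, Ccl2, Ccl3, Ccl4, Ccl5, Ccl6, Ccl7, Ccl9, Ccl12 and Ccl24, taken by symbol from the 51912 genes listed in the count data, each of which matched 1 row. RNA was sequenced from green cells of the aorta-gonad-mesonephros (AGM), the embryonic tissue along the dorsal aorta where blood stem cells arise. All embryos were E10.5 and carried MacGreen (Csf1r-EGFP), a transgene in which the promoter of the macrophage growth factor receptor gene drives EGFP. The groups were GFP+CD206+ cells, called CD206pos, and GFP+CD206- cells, called CD206neg. CD206 is the mannose receptor, encoded by Mrc1. Each group had 3 libraries, 1 from each of 3 litters, and a library pooled cells of 3 to 5 AGM after 45 min in collagenase at 37 °C. GFP marks cells in which the Csf1r promoter is or has been active, so precursors and granulocytes can be green as well as macrophages.

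Macrophages and monocytes are major sources of CC chemokines. The ligands act through G-protein-coupled receptors on other leukocytes and on the producing cells themselves, and most ligands share receptors. In the mouse, Ccl2, Ccl7 and Ccl12 belong to the monocyte chemoattractant proteins, whose main receptor is Ccr2. Ccl3, Ccl4 and Ccl5 attract monocytes, macrophages and T cells, and Ccl3 and Ccl5 act in part through Ccr1. Ccl6 and Ccl9 are rodent ligands that act through Ccr1, and Ccl24 is an eotaxin, a ligand of the eosinophil receptor Ccr3. Transcription of several of these genes is induced within a short time by NF-kB and AP-1 factors.

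The shared signature can be read in the genes themselves. The coding sequence around the paired cysteines is shown for the 9 genes from the GENCODE M21 annotation of GRCm38, 5′ to 3′ on the coding strand, with the 2 cysteine codons in capitals and 21 bases on each side, because this pair defines the family and because the flanks show how far neighbours resemble each other.
Ccl2: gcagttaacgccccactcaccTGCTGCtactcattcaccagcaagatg
Ccl7: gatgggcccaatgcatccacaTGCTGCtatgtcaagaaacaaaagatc
Ccl12: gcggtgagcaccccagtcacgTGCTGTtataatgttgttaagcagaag
Ccl3: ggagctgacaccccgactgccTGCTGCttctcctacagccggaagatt
Ccl4: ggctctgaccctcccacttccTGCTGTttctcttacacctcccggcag
Ccl5: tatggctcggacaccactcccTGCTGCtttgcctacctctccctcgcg
Ccl6: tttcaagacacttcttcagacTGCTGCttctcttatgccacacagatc
Ccl9: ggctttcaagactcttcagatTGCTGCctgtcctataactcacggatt
Ccl24: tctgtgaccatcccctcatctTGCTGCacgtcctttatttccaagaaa
The coding regions ran from 91 codons (Ccl5) to 148 codons (Ccl2). Ccl3 and Ccl4 had 92 codons each, and 67.0% of the columns of their alignment were identical. The other close pairs were Ccl7 with Ccl12 (66.0%), Ccl6 with Ccl9 (64.8%), Ccl2 with Ccl12 (63.3%) and Ccl2 with Ccl7 (62.0%). The longest run of identical bases between the transcripts of any 2 members was 25, for Ccl6 and Ccl9, and no exon of a member overlapped an exon of another listed gene on either strand.

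Of the 9 genes, 8 had enough reads to be tested, and 7 of those were called higher in CD206pos cells with none called lower. Over all 12668 tested genes, 2.97% were called higher and 1.9% lower by the same rule (edgeR's quasi-likelihood test, Benjamini-Hochberg adjusted p under 0.05 over all tested genes). The 8 tested members also had no overlap between groups, each CD206pos library lying above each CD206neg library, which held for 12.8% of all tested genes. The median log2 fold change was 1.77 over the 8 tested members and -0.0043 over all tested genes. The members were chosen with earlier results of these data known, so their contrast with all tested genes is a description and not a test. The direction was the same for each of the 8 in each of the 17 other fits that were tried (other scalings, filters and tools, a litter block, and leaving out libraries or litters). Without both libraries of litter 2, however, none of the 8 was called and only 3 genes were called in all, with adjusted p values of 0.075 to 0.095 for Ccl2, Ccl7, Ccl9 and Ccl12. The count of called members was 4 without the CD206neg library of litter 2, 4 without litter 3 of both groups, and 5 to 7 without any other single library. In bulk RNA, a lower share of expressing cells and less RNA per cell cannot be told apart.

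The libraries held between 16730846 and 18214283 reads in genes, and 3 reads corresponded to 0.165 to 0.179 CPM (reads relative to all reads in genes; levels below are CPM scaled by TMM, which corrects for library makeup). Mrc1, the gene of the sorting marker, had 1456, 1790 and 1503 CPM in the CD206pos libraries of litters 1, 2 and 3, against 51.5, 118 and 111 CPM in the CD206neg libraries. Csf1r, whose promoter drives the reporter, averaged 2281 CPM in CD206pos and 1597 CPM in CD206neg and was not called (adjusted p = 0.23, edgeR). All 12 macrophage markers had reads in both groups, with summed levels of 10806 to 14613 CPM in CD206pos against 5826 to 7487 CPM in CD206neg, and 6 of the 12 were called higher. Markers of other cells were more abundant in CD206neg: the 10 granulocyte genes summed to 17.3 to 69.6 CPM in CD206pos and 1859 to 2848 CPM in CD206neg, and the 8 blood progenitor genes to 39.0 to 77.3 CPM in CD206pos and 691 to 993 CPM in CD206neg. Mpo, a granule enzyme of myeloid precursors, averaged 18.1 CPM in CD206pos and 1914 CPM in CD206neg, and Kit, a stem and progenitor cell receptor, had 0 reads in all CD206pos libraries. Of the 6 tested granulocyte genes all 6 were called lower in CD206pos, and of the 8 progenitor genes 6 were. Of 5 tested monocyte genes, 1 was called higher (F13a1) and 3 lower, and Ly6c2, Chil3 and Cd177 had 0 reads in all CD206pos libraries. Mast cell genes summed to 0 to 0.63 CPM in CD206pos and 27.1 to 77.4 CPM in CD206neg, megakaryocyte genes to 1.28 to 9.95 CPM in CD206pos and 59.1 to 85.5 CPM in CD206neg, and endothelial genes to 31.1 to 60.8 CPM in CD206pos and 86.7 to 125 CPM in CD206neg. Erythroid genes (11.8 to 15.4 CPM in CD206pos, 7.42 to 9.68 CPM in CD206neg), mesenchymal genes (1.83 to 60.7 CPM in CD206pos, 3.15 to 73.9 CPM in CD206neg) and epithelial genes (2.00 to 8.37 CPM in CD206pos, 11.4 to 31.2 CPM in CD206neg) were low in both groups. The chemokines are also given per read of Csf1r. Csf1r had 26490, 41907 and 48963 reads in CD206pos and 28132, 30742 and 26401 reads in CD206neg. All sorted cells were green through the Csf1r promoter, so this scaling does not take out the part of these other cells. Their part in the chemokine differences was not tested.

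Among the monocyte chemoattractants, Ccl2, the main ligand for monocytes that carry Ccr2, was the most abundant. It lies at chr11:82035571-82037453 on the plus strand (ENSMUSG00000035385.5). Ccl2 had 391, 333 and 243 CPM in CD206pos cells of litters 1, 2 and 3, against 64.1, 57.6 and 35.2 CPM in CD206neg cells. The lowest CD206pos library was 3.79 times the highest CD206neg library, and within both groups litter 1 was highest and litter 3 lowest. The fold of the group means was 6.16, with 5.78 to 6.91 in the single litters, and the log2 fold change was 2.62 ± 0.27 (SE, n = 3 each, edgeR adjusted p = 0.0017). Per Csf1r read, Ccl2 was 4.76 times as high in CD206pos and the groups stayed apart.

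Ccl7, a ligand of Ccr1, Ccr2 and Ccr3, showed the largest fold among the 9 genes (chr11:82045712-82047525, plus strand, ENSMUSG00000035373.2). Its levels were 46.8, 44.3 and 38.8 CPM in CD206pos and 2.94, 1.16 and 1.46 CPM in CD206neg. In CD206neg those values rest on 54, 20 and 26 reads. Ccl7 was thus at 38.8 CPM or more in each CD206pos library and under 3 CPM in each CD206neg library, with a fold of 23.4 (litters 15.9, 38.3 and 26.5). The log2 fold change was 4.54 ± 0.40 (SE, n = 3 each, edgeR adjusted p = 0.0011), and per Csf1r read the fold was 17.2.

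Ccl12, a ligand of Ccr2, was the member closest to Ccl7 in the comparison of coding regions (66.0% identity; chr11:82101845-82103400, plus strand, ENSMUSG00000035352.3). It had 73.3, 83.7 and 85.2 CPM in CD206pos and 5.93, 7.92 and 3.43 CPM in CD206neg. The 3 CD206pos libraries differed little among themselves (80.7 ± 6.5 CPM, SD, n = 3), whereas CD206neg ranged more widely for its level (5.76 ± 2.25 CPM, SD, n = 3). The fold was 14.0 (litters 12.4, 10.6 and 24.8), the log2 fold change 3.81 ± 0.32 (SE, edgeR adjusted p = 0.0011), and the fold per Csf1r read 10.4. Ccl2, Ccl7 and Ccl12 were called with any 1 library left out, with log2 fold changes of 2.40 to 2.79, 4.29 to 5.04 and 3.54 to 4.11 in that order.

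**Figure D1:**
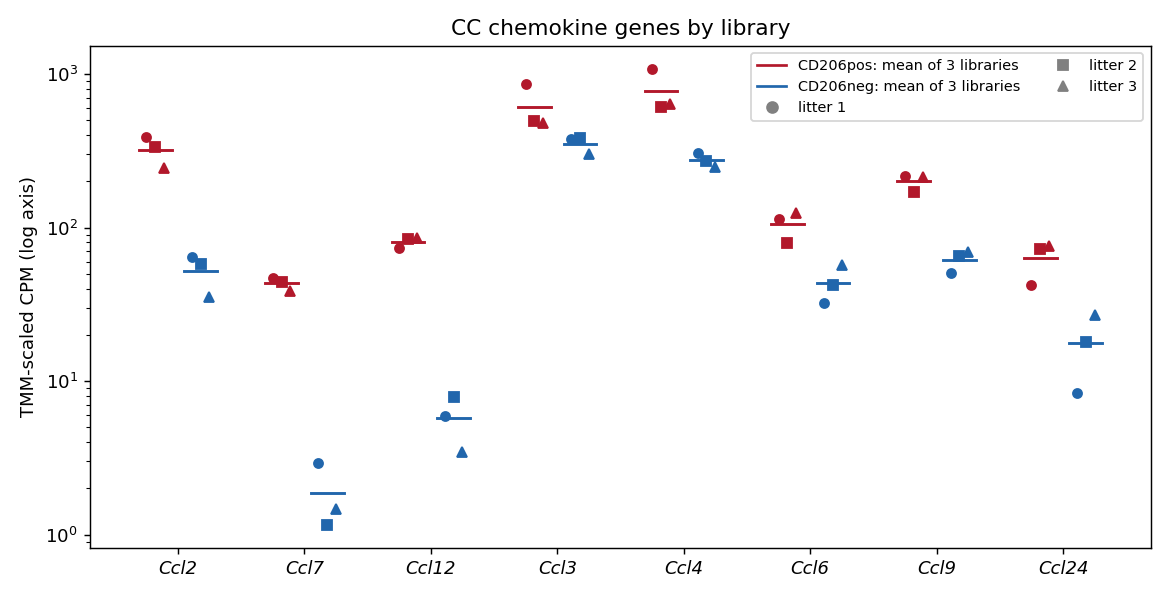
Levels of the CC chemokine genes in each library, as TMM-scaled CPM on a log axis, with CD206pos libraries beside CD206neg libraries of each gene and 1 point per litter. Each of the 8 tested genes has its 3 CD206pos points above its 3 CD206neg points, with the widest gap for Ccl7 (38.8 CPM or more against 2.94 CPM or less).

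Ccl3 and Ccl4, the macrophage inflammatory proteins, were the most abundant CC chemokine transcripts in both groups, and they did not differ between groups to the same extent. Ccl4 attracts monocytes, macrophages and T cells (chr11:83662584-83664683, plus strand, ENSMUSG00000018930.3). It had 1083, 614 and 642 CPM in CD206pos and 307, 271 and 249 CPM in CD206neg. The CD206pos library of litter 1 stood well above the other two, while the CD206neg libraries lay close together (276 ± 29 CPM, SD, n = 3). The fold was 2.83 (litters 3.53, 2.27 and 2.58) and the log2 fold change 1.50 ± 0.23 (SE, n = 3 each, edgeR adjusted p = 0.0086). Per Csf1r read the fold was 2.21, with no overlap between groups. The call for Ccl4 was lost without the CD206neg library of litter 2 (adjusted p = 0.068), without litter 3 of both groups (0.064) and without litter 2 of both groups (0.15).

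Ccl3, which acts in part through Ccr1 and is also known to restrain the division of blood stem and progenitor cells, was not called (chr11:83647844-83649355, minus strand, ENSMUSG00000000982.5). Its levels were 863, 497 and 481 CPM in CD206pos, against 378, 381 and 299 CPM in CD206neg. The lowest CD206pos library was 1.26 times the highest CD206neg library, so the groups did not overlap. Per Csf1r read they did overlap (fold 1.37). On that scale CD206pos was above CD206neg in litter 1 but below it in litters 2 and 3. The fold of the means was 1.74 and the log2 fold change 0.80 ± 0.24 (SE, n = 3 each, edgeR adjusted p = 0.11). DESeq2, fitted to the same counts, called it (adjusted p = 0.017; it called 5.2% of the genes it tested higher), and without the CD206pos library of litter 1 the log2 fold change was 0.47 in edgeR.

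The balance between these neighbours was compared within each library. For each Ccl4 read there were 0.796, 0.809 and 0.749 Ccl3 reads in the CD206pos libraries, against 1.23, 1.41 and 1.20 in the CD206neg libraries. Ccl3 reads were thus fewer than Ccl4 reads in all 3 CD206pos libraries and more in all 3 CD206neg libraries. The log2 ratio averaged -0.35 ± 0.06 in CD206pos and 0.35 ± 0.12 in CD206neg (SD, n = 3 each), a difference of -0.70, with p = 0.1 in a two-sided exact permutation test, the smallest that 3 against 3 allows. A ratio within a library does not depend on scaling, and with any 1 library left out the difference lay between -0.75 and -0.63. The ratio of Ccl2 to Ccl4, 1 gene from each chromosome 11 group, was higher in each CD206pos library than in any CD206neg library. It was 0.361, 0.542 and 0.379 Ccl2 reads per Ccl4 read in CD206pos and 0.209, 0.213 and 0.141 in CD206neg, a difference of 1.19 on the log2 scale (exact permutation p = 0.1, also the smallest possible), with a range of 0.99 to 1.30 when 1 library was left out.

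**Figure D2:**
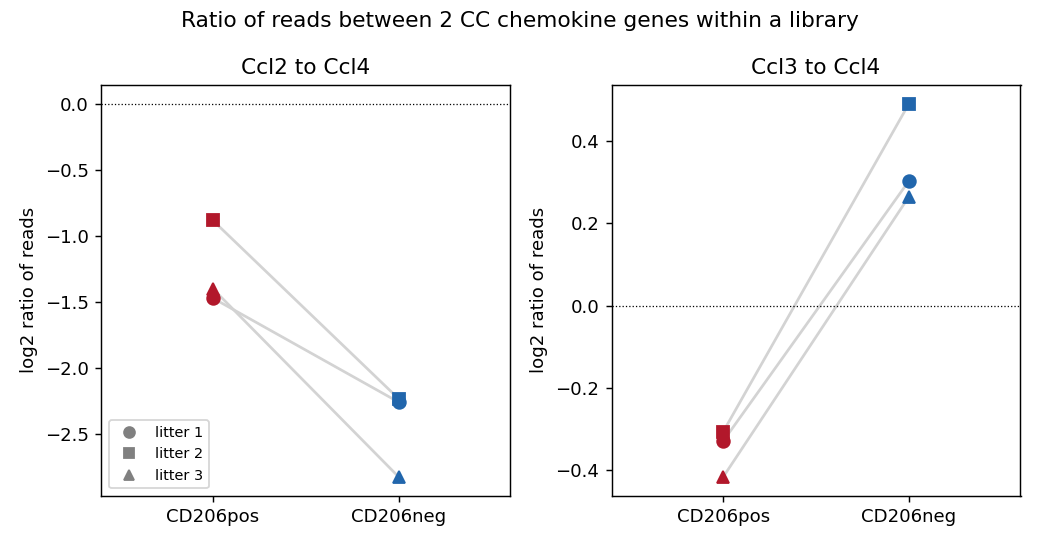
Log2 ratio of Ccl3 to Ccl4 reads and of Ccl2 to Ccl4 reads in each library, CD206pos left of CD206neg, with lines joining the libraries of 1 litter. The 3 CD206pos libraries lie below 0 and the 3 CD206neg libraries above 0 for Ccl3 over Ccl4 (means -0.35 and 0.35), and CD206pos lies above CD206neg for Ccl2 over Ccl4 (means -1.25 and -2.44).

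Ccl5, a chemokine best known from T cells and a ligand of Ccr1 and Ccr3, was close to undetected (chr11:83525778-83530518, minus strand, ENSMUSG00000035042.2). It had 0 reads in all 3 CD206pos libraries, and 0, 0 and 8 reads in the CD206neg libraries of litters 1, 2 and 3. A count of 0 in CD206pos allows up to 0.167 to 0.177 CPM, and the 8 reads amount to 0.450 CPM. Ccl5 was below the filter on low counts and was not tested.

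Ccl6 and Ccl9 lie next to each other and were both called higher. Ccl9 (chr11:83572919-83578636, minus strand, ENSMUSG00000019122.8) had 218, 170 and 215 CPM in CD206pos and 50.4, 65.2 and 69.4 CPM in CD206neg. Each CD206pos library was at least 2.45 times each CD206neg library, the fold of the means was 3.26, and the log2 fold change was 1.70 ± 0.19 (SE, n = 3 each, edgeR adjusted p = 0.0021). This was the smallest standard error among the 8 tested members, and the call held with any 1 library left out (1.58 to 1.80).

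Ccl6 (chr11:83587882-83593087, minus strand, ENSMUSG00000018927.3) had 113, 79.6 and 124 CPM in CD206pos, against 32.0, 42.4 and 56.6 CPM in CD206neg. In both genes litter 1 gave the lowest CD206neg value and litter 2 the lowest CD206pos value. The fold for Ccl6 was 2.42 and the log2 fold change 1.27 ± 0.26 (SE, n = 3 each, edgeR adjusted p = 0.029). This call rests on the full set of libraries: it was kept without the CD206neg library of litter 3 and lost without any other single library (adjusted p up to 0.14) or without litter 1, 2 or 3 of both groups (0.10 to 0.22), and per Csf1r read the groups overlapped (fold 1.77). The fold per Csf1r read was 2.42 for Ccl9, with no overlap.

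Ccl24, the eotaxin, was the only member on another chromosome (chr5:135569937-135573049, minus strand, ENSMUSG00000004814.10). It had 42.1, 72.7 and 75.4 CPM in CD206pos and 8.32, 17.9 and 26.8 CPM in CD206neg. Litter 1 was lowest and litter 3 highest in both groups, the reverse of Ccl2, and the folds within litters were 5.06, 4.07 and 2.82. The fold of the means was 3.59 and the log2 fold change 1.84 ± 0.42 (SE, n = 3 each, edgeR adjusted p = 0.045), the largest standard error among the tested members. Per Csf1r read the fold was 2.48. The call was kept without the CD206neg library of litter 3 and lost without any other single library (adjusted p up to 0.18) or without litter 2 (0.39) or 3 (0.12) of both groups, and it was also lost with scaling by library totals (0.062) or the upper quartile (0.055).

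**Figure D3:**
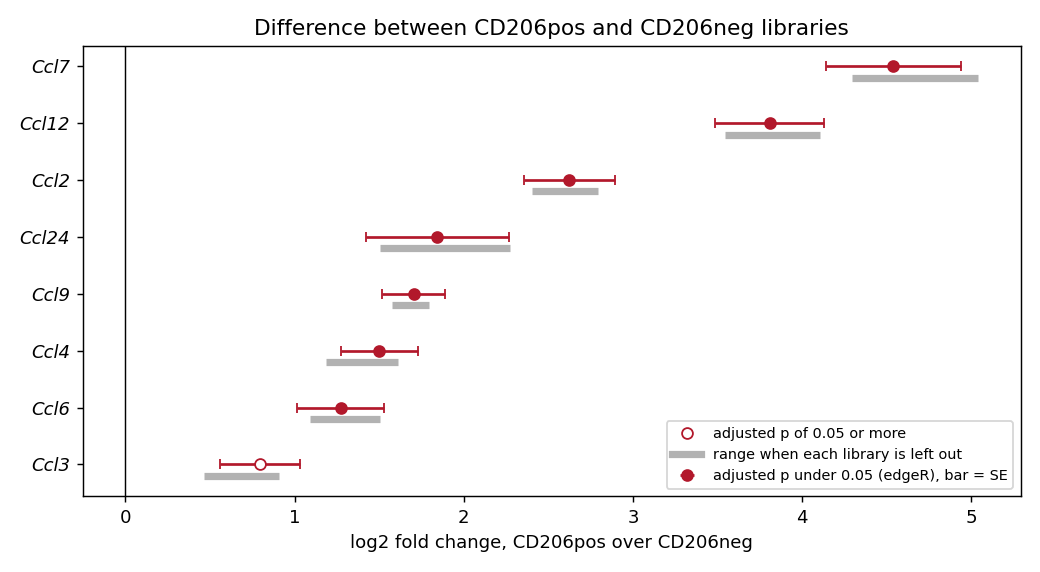
Log2 fold change of CD206pos over CD206neg for the 8 tested CC chemokine genes, with standard errors as bars and the range over the fits that leave out 1 library. All estimates are above 0, from 0.80 for Ccl3 to 4.54 for Ccl7, and Ccl3 is the 1 gene that was not called.

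To compare genes with each other, reads were divided by exon length and rescaled to TPM (length-corrected reads relative to their sum in the library). In CD206pos the order of mean TPM was Ccl4 (3412), Ccl3 (2312), Ccl2 (822), Ccl12 (439), Ccl9 (192), Ccl6 (171), Ccl7 (157), Ccl24 (144) and Ccl5 (0). The ranges of Ccl4 and Ccl3 overlapped, although Ccl4 was above Ccl3 in each of the 3 libraries, and the ranges of neighbours from Ccl9 to Ccl24 overlapped as well. In CD206neg the order was Ccl3 (1463), Ccl4 (1325), Ccl2 (146), Ccl6 (77.6), Ccl9 (64.5), Ccl24 (43.6), Ccl12 (34.1), Ccl7 (7.28) and Ccl5 (0.50). There, Ccl3 was above Ccl4 in all 3 libraries with overlapping ranges, and the ranges of neighbours from Ccl2 to Ccl12 overlapped. Among all listed genes ordered by mean TPM, Ccl4 stood at place 13 in CD206pos and 71 in CD206neg, and Ccl12 at place 373 in CD206pos and 4581 in CD206neg.

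The TPM of all listed CC chemokine genes together was 9639, 6792 and 6536 in the CD206pos libraries and 3314, 3347 and 2842 in the CD206neg libraries. The makeup of that sum is given as shares, which were not tested. Ccl3 and Ccl4 made up 79.7%, 70.5% and 72.1% of it in CD206pos and 89.3%, 87.7% and 86.8% in CD206neg. Ccl2, Ccl7 and Ccl12 made up 15.5%, 22.5% and 18.9% in CD206pos, against 6.62%, 6.45% and 4.42% in CD206neg, with no overlap. As a share of CC chemokine reads, the same 3 genes held 17.98% (95% Wilson interval 17.64% to 18.33%), 24.15% (23.69% to 24.61%) and 19.14% (18.72% to 19.56%) in CD206pos. In CD206neg they held 8.406% (7.986% to 8.847%), 7.786% (7.365% to 8.228%) and 5.277% (4.913% to 5.667%). The intervals cover counting error only and are narrow next to the spread between litters. Ccl6 and Ccl9 together had overlapping shares of the TPM sum in both groups, 3.88% to 6.29% in CD206pos and 3.21% to 6.14% in CD206neg, and were lowest in litter 1 and highest in litter 3 in both.

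**Figure D4:**
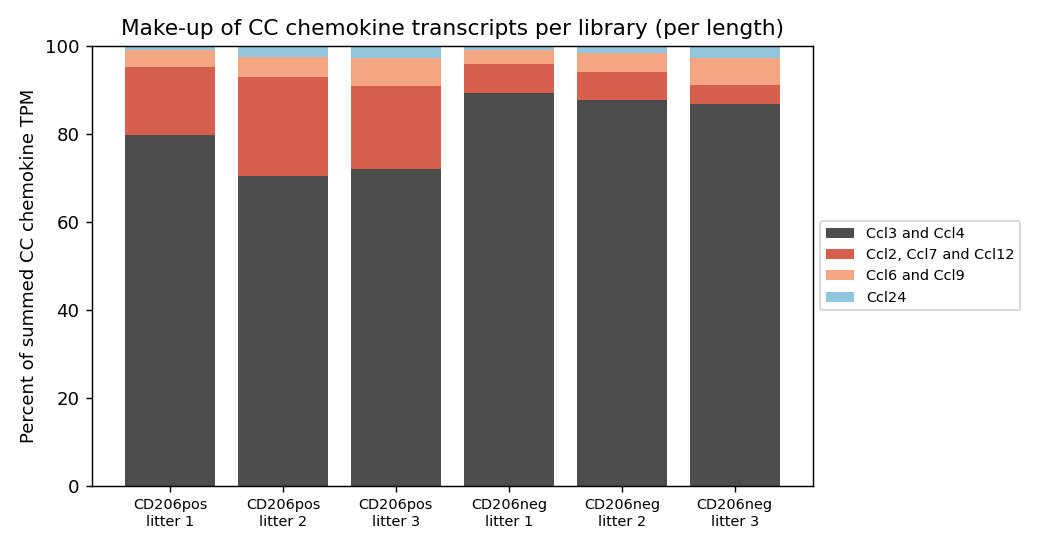
Share of the summed CC chemokine TPM taken by each set of members in each library, in percent, with the CD206pos libraries left of the CD206neg libraries. Ccl2, Ccl7 and Ccl12 take 15.5% to 22.5% in CD206pos and 4.42% to 6.62% in CD206neg, and Ccl3 with Ccl4 the largest share in all 6 libraries.

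Other CC chemokine genes had few or no reads, apart from Ccl25. The 9 members held at least 99.2% of all CC chemokine reads in each CD206pos library and at least 97.7% in each CD206neg library. Of 14 other CC chemokine genes listed, 10 had 0 reads in all libraries, among them Ccl11 and Ccl8, which lie between or beside Ccl7 and Ccl12. Ccl25, a thymus and gut chemokine, was the 1 that could be tested, at 12.3 CPM in CD206pos and 15.8 CPM in CD206neg (log2 fold change -0.36, edgeR adjusted p = 0.65). Its CD206neg mean was above those of the members Ccl12 (5.76 CPM) and Ccl7 (1.85 CPM). Ccl27a had 2 to 15 reads in each CD206pos library and 4 to 12 in each CD206neg library. Ccl20 had 7 reads in the CD206pos library of litter 2 alone, and Ccl22 had 8 in that of litter 3 alone.

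The members sit in 3 places in the genome (GRCm38). Ccl2, Ccl7 and Ccl12 span 67.8 kb of chromosome 11, and of 7 other genes listed within 200 kb of them, 6 had 0 reads in all libraries and none reached 1 read per library on average. Ccl5, Ccl9, Ccl6, Ccl3 and Ccl4 span 139 kb of the same chromosome, in that order from the lower coordinate. Of 24 other genes around this second group, 11 had 0 reads, 10 had at least 1 read per library on average, and 4 were tested with none called. Wfdc17, a small secreted protein gene of macrophages that lies beyond Ccl4, averaged 64.6 CPM in CD206pos and 73.2 CPM in CD206neg (adjusted p = 0.78, edgeR). Around Ccl24 on chromosome 5, 16 other genes were listed, of which 7 were tested with none called, and the adjacent eotaxin gene Ccl26 had 0 reads. In these windows the only genes called were members. No other gene was tested around Ccl2, Ccl7 and Ccl12, and only 4 and 7 were around the other members. Over all tested genes 4.87% were called in either direction, so these few genes cannot show whether the difference is limited to the members.

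**Figure D5:**
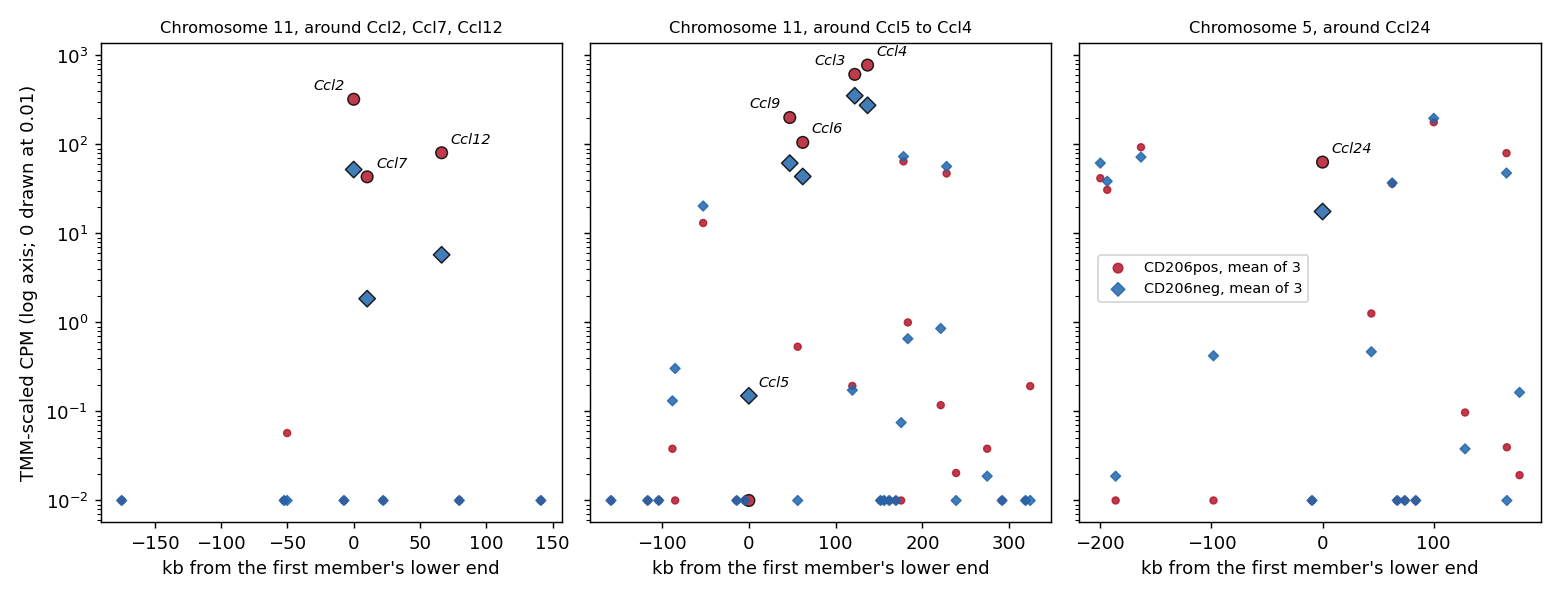
Mean TMM-scaled CPM (log axis, 0 drawn at 0.01) of each listed gene within 200 kb of the 3 groups of members, against distance in kb from the lower end of the first member, with CD206pos as circles, CD206neg as diamonds and members larger and outlined. Members other than Ccl5 lie between 43.3 and 780 CPM in CD206pos, and none of the 11 other tested genes was called (4.87% over all tested genes).

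Promoter sequence from RefSeq (GRCm38.p6, 250 bases before to 50 after the annotated start) was at hand for 4 of the 9 members, Ccl12, Ccl3, Ccl6 and Ccl9. They were searched on both strands for an NF-kB motif (GGG, then 5 bases of any kind, then CC), an AP-1 motif (TGANTCA), a C/EBP motif (TTNNGNAA), a PU box (GAGGAA, bound by the macrophage factor PU.1) and a TATA box (TATAAA). Of 32851 promoters in the same set, 50.8% held the NF-kB motif, 7.81% the AP-1 motif, 40.7% the C/EBP motif, 28.3% the PU box and 13.6% the TATA box. Shown are the gene with a large group difference (Ccl12), the gene that was not called (Ccl3) and the gene with the most matches (Ccl9), with matches in capitals.
Ccl12 promoter, chr11:82101595-82101894, plus strand: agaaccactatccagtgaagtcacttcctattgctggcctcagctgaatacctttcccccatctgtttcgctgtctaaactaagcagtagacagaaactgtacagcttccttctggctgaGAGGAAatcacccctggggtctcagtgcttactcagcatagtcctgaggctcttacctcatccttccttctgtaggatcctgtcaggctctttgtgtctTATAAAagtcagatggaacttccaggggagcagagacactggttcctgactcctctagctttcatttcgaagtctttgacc
Ccl3 promoter, chr11:83649329-83649628, minus strand: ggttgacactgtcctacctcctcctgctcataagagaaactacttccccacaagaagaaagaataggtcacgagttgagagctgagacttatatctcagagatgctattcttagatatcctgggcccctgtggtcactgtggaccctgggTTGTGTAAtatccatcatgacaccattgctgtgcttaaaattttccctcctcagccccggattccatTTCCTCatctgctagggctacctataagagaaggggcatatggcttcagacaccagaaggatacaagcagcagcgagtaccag
Ccl9 promoter, chr11:83578587-83578886, minus strand: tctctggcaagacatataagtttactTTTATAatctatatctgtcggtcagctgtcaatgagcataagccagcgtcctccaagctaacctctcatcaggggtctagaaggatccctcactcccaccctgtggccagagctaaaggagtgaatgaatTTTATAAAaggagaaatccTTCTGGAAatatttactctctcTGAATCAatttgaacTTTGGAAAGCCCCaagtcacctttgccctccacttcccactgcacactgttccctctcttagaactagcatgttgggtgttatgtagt
In Ccl12 the matches were a PU box from base -130 to -125, counted from the annotated start, and a TATA box from -31 to -26. In Ccl3 they were a C/EBP motif from -100 to -93 and a PU box, on the other strand, from -33 to -28. Ccl9 held an AP-1 motif from -53 to -47, an NF-kB motif from -35 to -26 that overlaps 1 of its 2 C/EBP motifs, and 3 TATA motifs, of which a pair overlap. The Ccl6 window held none of the 5 motifs. A match is only a match of letters in these windows.

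The receptors of these ligands showed no shared direction. Of 15 CC chemokine receptor genes, 5 were tested and 1 was called, Ccr2, which was lower in CD206pos. Ccr2 had 50, 20 and 0 reads in CD206pos and 378, 366 and 811 reads in CD206neg, or 1.40 ± 1.54 CPM in CD206pos and 29.1 ± 14.3 CPM in CD206neg (SD, n = 3 each). The log2 fold change was -4.38 ± 1.00 (SE, edgeR adjusted p = 0.045), a call that was lost with the litter block (0.077), with limma-voom (0.077), without the CD206pos library of litter 2 (0.18), without any 1 of the CD206neg libraries (0.11 to 0.14) and without litter 1, 2 or 3 of both groups (0.088, 0.34 and 0.063). Ccr1 averaged 143 CPM in CD206pos and 156 CPM in CD206neg (adjusted p = 0.92, edgeR). The sign of this small difference changed when single libraries were left out. Ccrl2, a receptor that binds chemerin without signalling, averaged 33.6 CPM in CD206pos and 19.6 CPM in CD206neg without overlap between groups and was not called (adjusted p = 0.16, edgeR). The scavenging receptor Ackr1 averaged 0.25 CPM in CD206pos and 0.89 CPM in CD206neg (adjusted p = 0.74, edgeR). Ccr3, the receptor of Ccl24, had 0, 31 and 39 reads in CD206pos and 0 in all CD206neg libraries and was not tested.

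Among other chemokines and the pathways named above, some genes were called higher and none lower, where 2.97% of all tested genes were called higher and 1.9% lower. Of 7 tested CXC, C and CX3C chemokine genes, 2 were called higher and none lower. Pf4, a chemokine of platelets and macrophages, averaged 153 CPM in CD206pos and 6.76 CPM in CD206neg (log2 fold change 4.49, adjusted p = 0.00011, edgeR), and Cxcl2, a neutrophil attractant, 22.7 CPM in CD206pos and 5.45 CPM in CD206neg (2.05, adjusted p = 0.031). Of 23 NF-kB and AP-1 pathway genes, 5 were called higher and none lower, with a median log2 fold change of 0.40. They included the cytokine Tnf (148 CPM in CD206pos, 45.6 CPM in CD206neg, adjusted p = 0.0065) and the inhibitor gene Nfkbia (344 CPM in CD206pos, 160 CPM in CD206neg, adjusted p = 0.010, edgeR). Nfkbiz, a nuclear cofactor of NF-kB, averaged 179 CPM in CD206pos and 69.0 CPM in CD206neg (adjusted p = 0.0076, edgeR). Of 10 genes for chemokine mRNA decay and signal feedback, 3 were called higher and none lower, with a median of -0.06. Zfp36 and Zfp36l1 encode proteins that destabilise AU-rich mRNAs and Dusp1 a phosphatase that ends stress kinase signals. Zfp36 averaged 524 CPM in CD206pos and 265 CPM in CD206neg, Zfp36l1 228 CPM in CD206pos and 101 CPM in CD206neg, and Dusp1 1315 CPM in CD206pos and 613 CPM in CD206neg (adjusted p under the threshold for all 3, edgeR). Calls of these genes lost without 1 library were those of Cxcl2 (without any library other than CD206pos of litter 2, adjusted p up to 0.12; also with the litter block, 0.070, and limma-voom, 0.062), Nfkbiz (without CD206pos of litter 2, 0.051), Nfkbia (without CD206neg of litter 1, 0.051, or 2, 0.076) and Dusp1 (without CD206pos of litter 2 or 3 or CD206neg of litter 1 or 2, 0.051 to 0.096). Without both libraries of litter 1, 2 or 3, the calls of Cxcl2 (adjusted p 0.11 to 0.20), Tnf (0.074 to 0.077), Nfkbiz (0.069 to 0.11) and Nfkbia (0.074 to 0.15) were lost each time. Those of Zfp36, Zfp36l1 and Dusp1 were lost without litter 2 (0.14 to 0.31) or litter 3 (0.067 to 0.11), and that of Pf4 was kept in all these fits.

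Several of these genes are also known to respond to enzymatic dissociation. Of 17 such genes, 6 were called higher (2.97% over all tested genes) and none lower, with a median log2 fold change of 0.61. Their summed level was 11890 to 14368 CPM in CD206pos against 8889 to 9881 CPM in CD206neg. The lists overlap: of the 6 called genes, Junb and Atf3 are also counted above among the NF-kB and AP-1 genes. Zfp36 and Dusp1 are also counted above among the decay and feedback genes. Egr1, an immediate early gene, was at 826 CPM in CD206pos and 290 CPM in CD206neg (log2 fold change 1.51, adjusted p = 0.0011, edgeR; 0.078 without litter 2 of both groups). Both populations passed through the same digestion, and the part of this response in the chemokine levels was not tested.

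Finally, the genes whose pattern over the 6 libraries was most like that of a member were named, by the root mean square (RMS) difference of centred log2 CPM among 8153 genes with at least 10 CPM on average; this likeness is a description. For Ccl2 they were Ctla2b (RMS 0.28), Rgs7bp (0.30) and the complement receptor gene C5ar1 (0.30). For Ccl4 they were Ralgds (0.19), Zfp948 (0.19) and the stress factor gene Atf3 (0.21). For Ccl6 they were Tcta (0.14), Plekha8 (0.14) and Blvra (0.15), and for Ccl24 the lectin receptor gene Clec4a1 (0.13), Gab3 (0.16) and Loxl3 (0.18). No member was among the 3 genes most like any of these 4. The nearest member to Ccl6 was its neighbour Ccl9, in place 35 (RMS 0.26). The nearest to Ccl4 was Ccl9, in place 40 (0.34), ahead of its neighbour Ccl3 in place 65 (0.36). For Ccl2 it was Ccl4 of the other chromosome 11 group, in place 61 (0.65), ahead of Ccl12 in place 75 (0.69) and Ccl7 in place 536 (1.03). For Ccl24 it was Ccl9, in place 118 (0.51).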

How the data were processed

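The 6 deposited files, 1 per library, hold raw read counts. Per the file headers, the authors counted reads over GENCODE vM14 exons with featureCounts 1.5.2 and no option for strand, read pairs or multi-mapping reads. Per the submitters' processing notes, STAR 2.3, Subread, featureCounts and FastQC were among the tools and mm10 and GRCm38.p5 among the builds. Reads shared by near-identical transcripts are not counted by the program's defaults. Symbols came from GENCODE M21 (51633 of 51912 identifiers matched).

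The main test was that of edgeR 4.0.16 (R 4.3.3), with filterByExpr, TMM scaling, a robust quasi-likelihood F test without a litter block, and Benjamini-Hochberg adjustment over all 12668 tested genes with a threshold of 0.05. Folds divide mean scaled CPM of CD206pos by that of CD206neg. The standard error of the log2 fold change was derived from the edgeR test, as the absolute log2 fold change divided by the square root of its F value. TPM values were computed here from the exon lengths in the files. Depth was 16730846 to 18214283 reads in genes per library, and intervals and floors (3 reads) cover counting error only, since no molecular identifiers are recorded. The alternatives were the litter block, scaling by RLE, by library totals and by the upper quartile, filters at 1 read in all and at 5 CPM in 3 libraries, DESeq2 1.42.0, limma-voom (limma 3.58.1) with quality weights, and leaving out each library or litter. The edgeR fit with and without the litter block, DESeq2 and limma-voom were also run on simulated data with known changes. The other scalings and filters and the fits that leave out libraries were not.

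Groups came from the labels. The AGM number in the titles was read as the litter, since the series design names 3 litters; libraries with the same number deviated from their group means with correlations of 0.089, 0.039 and 0.18, and Xist had 0 reads in both litter 2 libraries and 394 to 1931 in the others. The members and the gene lists were chosen with earlier results of these data known. Named genes are the 9 members, other CC chemokines with a read, tested receptors (some genes of the lists are not reported here), up to 3 called genes per direction of each other list with the smallest p, genes called within 200 kb of the members, and the 3 genes most like Ccl2, Ccl4, Ccl6 and Ccl24. Markers, Mrc1, Csf1r, Ccr3, Ccl8, Ccl11, Ccl26, Wfdc17 and Junb were named beside these.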

Additional observations from a re-analysis of the deposited data

How the results depend on the processing

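Of the 9 genes, 7 were called in the edgeR fit and 617 genes in all (376 higher and 241 lower in CD206pos). With library totals as the only scaling the split of all calls was 273 higher and 284 lower, and 6 members were called. DESeq2 called 1417 genes and 8 members, with Ccl3 (adjusted p = 0.017) the added one. With the litter as a block, the numbers of the titles pairing the samples, 703 genes and 7 members were called; the adjusted p for Ccl24 was 0.0077 with the block and that for Ccl3 0.051. Leaving out 1 library gave 190 to 561 called genes and 4 to 7 called members. Leaving out both libraries of litter 1, 2 or 3 gave 307, 3 and 153 called genes and 6, 0 and 4 called members. Over the 17 alternatives, the call was kept in 16 for Ccl2, Ccl7, Ccl9 and Ccl12, in 14 for Ccl4, in 9 for Ccl6 and in 8 for Ccl24, and no member changed direction. Ccr1, which was not called, changed sign when libraries were left out: it ranged from -0.36 to 0.20 without 1 library and was 0.076 without litter 1. The log2 ratio differences kept their sign under all alternatives; paired by litter, the exact sign-flip test gave p = 0.25 for both, the smallest 3 litters allow, with differences of -0.70 (Ccl3 to Ccl4) and 1.19 (Ccl2 to Ccl4). The 3 libraries a group and the pooled embryos limit the precision, and strand was not used in counting.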
